A study of Mus musculus with 68 samples.

Results

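Papillomas from mice that carried 0 or 1 tumor after 20 weeks of promotion were compared with papillomas from mice that carried 2 to 7, across every probeset of the array that passed a filter on low values. The first class, called resistant here, held 6 of the 37 mice of the series and 11 of its 68 papillomas. The second, called intermediate, held 19 mice and 35 papillomas. Both classes were assigned from the label for the number of papillomas at 20 weeks. The 12 remaining mice, with 9 to 35 papillomas, are called susceptible and enter only where they are named.

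All animals were FVBBX mice, a backcross in which hybrids of the wild-derived strain SPRET/Ei and the inbred strain FVB/N were mated to FVB/N again, so that each mouse carries its own mixture of the parental genomes. Skin tumors were raised on the dorsal back skin of mice 8 to 12 weeks old by 25 µg of the mutagen dimethyl benzanthracene (DMBA), followed by the promoter tetradecanoyl-phorbol acetate (TPA) for 20 weeks. Resistant mice were 4 females and 2 males with 5 agouti coats and 1 white, and intermediate mice were 10 females and 9 males with 8 agouti coats and 11 white. By the label for origin, resistant mice were 1 F1BSF1, 1 F1BSF2 and 4 F1BSF4. Intermediate mice were 5 F1BSF1, 3 F1BSF2, 5 F1BSF3 and 6 F1BSF4. Origin entered none of the fits. The time from treatment to sacrifice was 255 to 343 days in 3 resistant mice, the only ones with this label. It was 201 to 334 days in 18 intermediate mice. Of the 6 resistant mice, 3 carried no papilloma at 20 weeks. Among these, mouse 10 had a first papilloma recorded at 12 weeks and 1 papilloma at 24 weeks. At 24 weeks the resistant mice carried 0 to 7 papillomas, with a median of 1.5, and the intermediate mice carried 2 to 18, with a median of 5. The first papilloma was recorded at 8 to 28 weeks in 5 resistant mice, with a median of 18 weeks, and at 10 to 18 weeks in 18 intermediate mice, with a median of 14 weeks. The mice had started treatment in 7 cohorts, and resistant mice share a cohort with intermediate mice in cohorts 2, 4, 5 and 7. Cohort 2 held 2 resistant and 4 intermediate mice, cohort 4 held 1 and 1, cohort 5 held 1 and 2, and cohort 7 held 1 and 3, so that differences within these cohorts rest on 1 or 2 resistant mice and have no test. By the cage label, resistant mouse 32 was housed with intermediate mouse 8, and resistant mouse 37 with intermediate mice 14 and 15.

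In this model DMBA initiates epidermal cells, most often through a mutation in Hras, and TPA drives their outgrowth into benign, folded tumors of keratinocytes around a core of stroma, vessels and immune cells. Keratinocytes that leave the basal layer switch on the keratins Krt1 and Krt10, join through desmosomes rich in Dsg1 and Dsc1, and end as cornified cells sealed by ceramide-rich lipids. The keratins of simple epithelia, Krt8, Krt18 and Krt19, are scarce in normal epidermis between the hair follicles.

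Values are log2 levels after robust multichip averaging (RMA), averaged over the papillomas of a mouse, so that n counts mice. Array medians lay between 5.185 and 5.286, and a level near them carries little signal over background. Of 45101 probesets, 21561 (12596 genes) carried 1 gene symbol and exceeded the median of the array in 11 arrays or more, and these were tested. The label of an epidermal tumor was checked with the list of basal keratins and hemidesmosome genes, whose mean level over 17 genes was 10.34, 10.44 and 10.62 in resistant mice and 9.87, 10.38 and 10.63 in intermediate mice (lowest, median, highest). In 8 arrays of 6 mice the levels of sex-linked transcripts went against the label for sex, and these mice, called below the mice of doubtful label, were 1 resistant (mouse 35), 4 intermediate and 1 susceptible. A mouse was marked if any of its arrays went against the label. Of these arrays 1 was from a resistant mouse and 6 from intermediate mice, so not every papilloma of the marked mice went against the label. Whether the sex label or the identity of a tumor is in error was not tested. Cohort 4 consists of mouse 35 and an intermediate mouse of doubtful label, and cohort 2 includes mouse 32, which is described next. In a whole tumor, fewer cells of a type and less RNA in each cell cannot be told apart.

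One tumor stood apart from the others. The first papilloma of resistant mouse 32, an animal without papillomas at 20 and at 24 weeks, had a Krt10 level of 7.14, against 10.8 to 14.5 in the others, 45 papillomas of both classes. Its Krt1 level was 4.29, against 8.55 to 14.4 in the others, and its Casp14 level was 3.62, against 9.19 to 12.7 in the others. Its Krt19 level was 12.9, against 4 to 9.41 in the others. For Krt10, Krt1, Casp14, Sptlc3, Blmh and Calm4 it was the lowest, and for Krt19 and Krt18 the highest, of all 68 arrays. Blmh is taken here by its brighter probeset. The second papilloma of the same mouse had Krt10 at 13.8, Krt1 at 12.2 and Krt19 at 4.69, so the mean of this mouse lies between unlike tumors. Medians of gene lists are also given without mouse 32 and without the mice of doubtful label. This was done for larger medians that moved by over 1.5 times in either setting. Several small medians that moved as much are given alone, and some of these changed sign. For the IL1 family and Tslp the median was 0.07 in all mice, 0.12 without mouse 32 and −0.06 without the mice of doubtful label. In that order it was −0.04, 0.02 and −0.10 for T cells, and −0.09, −0.07 and 0.03 for the xenobiotic and NRF2 response.

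Limma called 452 probesets at an adjusted p under 0.05 (Benjamini-Hochberg over the 21561 tested). Of these, 144 probesets of 129 genes were higher in resistant mice (0.668% of those tested), and 308 probesets of 270 genes were lower (1.43%). At an unadjusted p under 0.05 there were 4208. The median difference among the calls was 0.57 for higher and −0.55 for lower probesets on the log2 scale, 12 higher and 39 lower probesets differed by over 1, and the median over all tested was −0.01. Over the 12596 genes, the 129 with any probeset higher are 1.02% and the 270 with any probeset lower are 2.14%. With 1 probeset per gene, the one with the highest mean, 89 genes were higher (0.707%) and 166 lower (1.32%). Counts of calls in the gene lists below are by 1 probeset per gene unless another rule is named. All 6 resistant mice lay above all 19 intermediate mice in 2 probesets (0.00928%) and below them in 5 (0.0232%).

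**Figure D1:**
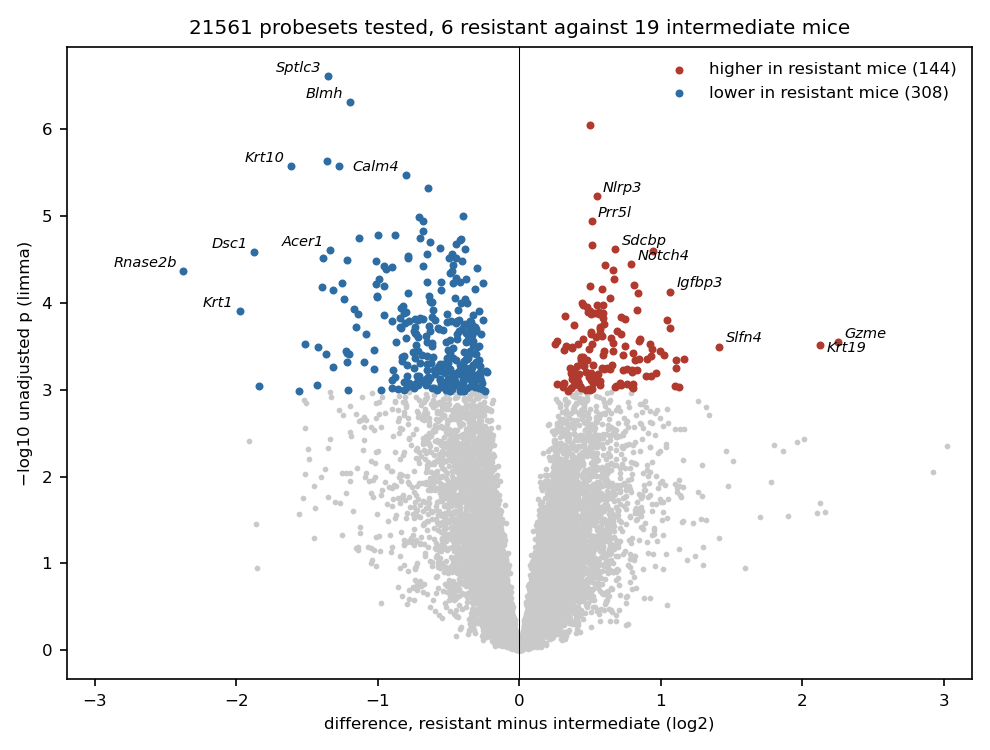
Each point is 1 of 21561 probesets; the horizontal axis is the difference of class means (resistant minus intermediate, log2) and the vertical axis −log10 of the unadjusted limma p. The 144 probesets called higher and the 308 called lower are colored, and the smallest p-values, those of Sptlc3 and Blmh, lie on the lower side.

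The number of calls depended on single mice. Of the 452 probesets, 12 (3 higher, 9 lower) stayed past the threshold when each of the 25 mice was left out in turn: Sh2d3c, Nlrp3 and Prr5l higher, and Sptlc3, Blmh, Krt10, Dsc3, Capns2, Calm4, Hadh, Ap1ar and Ddx28 lower. Every other gene named below as called lost its call when at least 1 of the mice was left out. The calls were 7 higher and 9 lower without mouse 32, 12 higher and 43 lower without resistant mouse 34, 37 higher and 142 lower without resistant mouse 35 and 72 higher and 104 lower without resistant mouse 37. The genes called without mouse 32 were those 12 with Themis2, Basp1, Neurl3 and Clec4e. Leaving out resistant mouse 10, the one with a white coat, gave 511 higher and 834 lower. The class of mouse 10 is less certain, since its first papilloma was recorded at 12 weeks and its count at 20 weeks is 0. Whether a papilloma was lost or a label is wrong was not tested. With mouse 32 represented by its second papilloma alone there were 20 higher and 68 lower. Without the mice of doubtful label 1 probeset was higher (Prr5l) and 4 were lower (Sptlc3, Blmh, Gng12 and Ufsp1). With mouse 32 left out as well limma made 0 calls, 2208 probesets had an unadjusted p under 0.05, and the differences of the 452 had a median of 0.841 times their value in all 25 mice. Coat entered as a covariate left 2 higher and 8 lower, and the starting cohort as a block gave 273 higher and 672 lower. In the block fit mouse 10 is the only mouse of cohort 3, so the class difference does not draw on it. Cohorts 1 and 6 held intermediate mice only and do not inform that difference either. The differences of the 452 were at a median of 0.952 times their value without mouse 32 and 0.946 times with coat as a covariate.

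**Figure D2:**
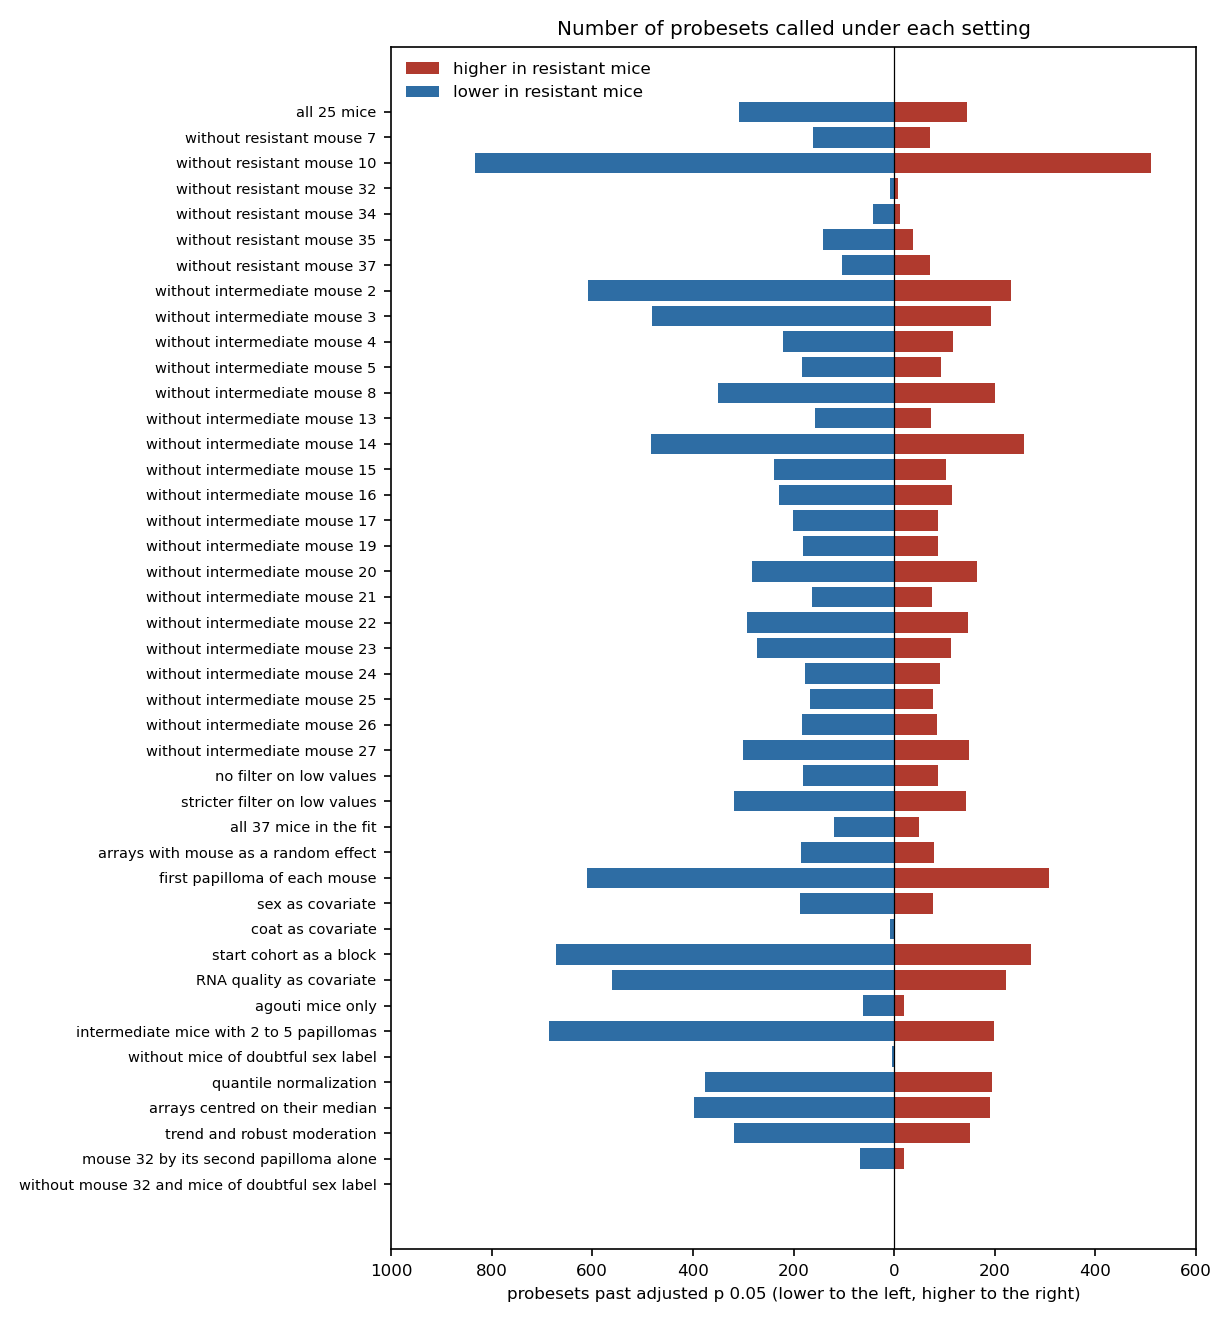
Bars give the number of probesets past an adjusted p of 0.05, higher in resistant mice to the right and lower to the left, for all 25 mice, for each mouse left out and for the other settings. The bars shrink to 7 and 9 probesets without mouse 32 and grow to 511 and 834 without mouse 10.

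Of 39 genes of the cornified barrier tested, 5 were called lower, Krt10, Krt1, Dsg1a, Casp14 and Tgm5, and 0 were called higher; Dsc1 was called lower by a second probeset. All 39 differences were negative, with a median of −1.02 against 0.00 over 1 probeset of every gene tested, and limma gave 0 higher and 21 lower at an unadjusted p under 0.05. The mean level of the list was 8.93, 10.45 and 10.76 in resistant mice and 8.87, 11.20 and 11.93 in intermediate mice (lowest, median, highest). The classes overlap, since the lowest mean belongs to intermediate mouse 3 and the next to resistant mouse 32. The median difference was −0.56 without mouse 32, −0.67 without the mice of doubtful label and −0.21 without both.

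Krt10, the keratin of the first suprabasal layers, had levels of 10.45, 12.52 and 13.29 in resistant mice and 13.03, 13.97 and 14.39 in intermediate mice (lowest, median, highest). Its difference was −1.62 ± 0.27 (SE), a 3.07-fold lower level (adjusted p = 0.00972), and it lay between −2.50 and −1.06 under 42 alternatives, with adjusted p between 0.00278 and 0.239. Of the 6 resistant mice, 5 lay below the lowest intermediate mouse, and within cohorts 2, 4, 5 and 7 the difference was −2.02, −1.93, −1.39 and −1.95, with 1 resistant mouse in each of the last 3. Krt1, its partner in the filament, had levels of 8.26, 12.86 and 13.43 in resistant mice and 13.23, 13.90 and 14.36 in intermediate mice (difference −1.98 ± 0.44, adjusted p = 0.0264). Here 5 of 6 resistant mice lay below every intermediate mouse. Without mouse 32 the difference of Krt1 was −1.25 (adjusted p = 0.062). With mouse 32 represented by its second papilloma alone, the differences of Krt10 and Krt1 were −1.06 and −1.31.

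Casp14, a protease of the cornified layer that takes part in filaggrin processing, had levels of 7.26, 10.09 and 10.22 in resistant mice and 9.76, 10.95 and 12.36 in intermediate mice (difference −1.52 ± 0.36, adjusted p = 0.0321), with 2 of 6 resistant mice below every intermediate mouse. Its lowest value belongs to mouse 32, and the difference was −1.05 without that mouse (adjusted p = 0.0989) and −0.71 with the mice of doubtful label left out too. Calm4, a calmodulin-like protein of differentiating keratinocytes, had levels of 12.25, 13.57 and 13.79 in resistant mice and 13.86, 14.19 and 14.47 in intermediate mice, and the classes did not overlap. Its difference was −0.80 ± 0.14 (adjusted p = 0.0105). Blmh, a cysteine protease that helps break filaggrin down to free amino acids, was chosen after its values were seen, as were Capns2 and Sbsn. Its levels were 9.91, 10.36 and 10.97 in resistant mice and 10.91, 11.58 and 12.33 in intermediate mice (difference −1.20 ± 0.18, adjusted p = 0.00528), and 5 of 6 resistant mice lay below every intermediate mouse. The brighter probeset of Blmh differed by −0.79 ± 0.17 (limma, adjusted p = 0.023). Capns2, a small regulatory subunit of calpain proteases, differed by −1.27 ± 0.21 (adjusted p = 0.00972), and Sbsn, a secreted protein of the upper epidermis, by −1.24 ± 0.27 (adjusted p = 0.0246).

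**Figure D3:**
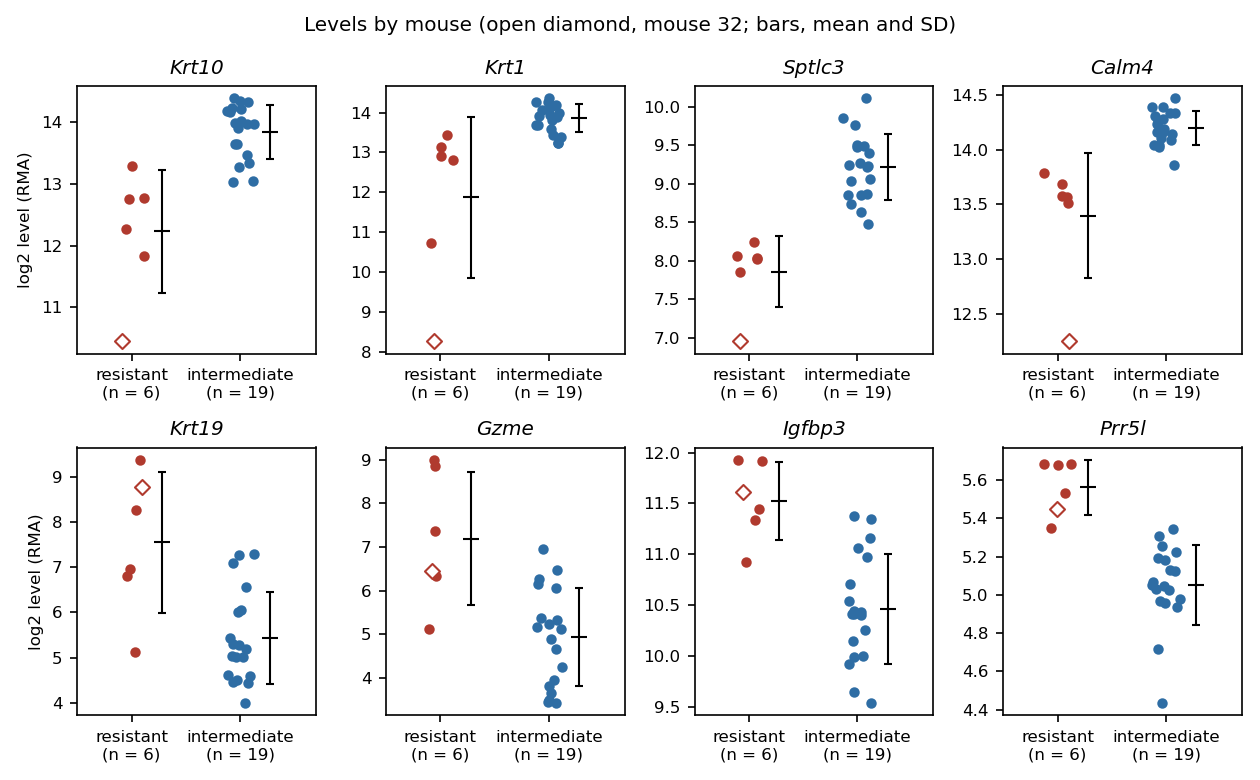
Each point is the mean log2 level of 1 mouse (6 resistant, 19 intermediate), bars are mean and SD, and the open diamond is mouse 32. The resistant mice sit low for Krt10, Krt1, Sptlc3 and Calm4 and high for Krt19, Gzme, Igfbp3 and Prr5l, with no overlap for Sptlc3, Calm4 and Prr5l.

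Of 6 desmosomal cadherins tested, a family assembled after the values were seen, Dsc1, Dsc3 and Dsg1a had a probeset called lower and none was called higher. By 1 probeset per gene 2 were called lower and 4 of 6 differences were negative. Dsc1, the desmocollin of the upper layers, had levels of 7.23, 9.01 and 9.51 in resistant mice and 8.70, 10.59 and 12.01 in intermediate mice (difference −1.87 ± 0.37, adjusted p = 0.0183). The brighter probeset of Dsc1 differed by −1.04 ± 0.28 and was not called (limma, adjusted p = 0.051). Dsc3, the desmocollin of the lower layers, had levels of 8.03, 8.33 and 9.63 in resistant mice and 8.55, 9.98 and 10.60 in intermediate mice (difference −1.36 ± 0.23, adjusted p = 0.00972). For the called probeset of Dsc1 and this one of Dsc3, 3 of 6 resistant mice lay below every intermediate mouse. The brighter probeset of Dsc3 differed by −0.71 ± 0.13 (limma, adjusted p = 0.0183). Among 7 connexins, also grouped afterwards, the gap junction genes Gjb2, Gjb5 and Gjb6 were called lower, Gjb6 by −1.32 ± 0.28 (adjusted p = 0.0221). By contrast 14 of 17 genes of the basal epidermis and hemidesmosome list had a positive difference, with a median of 0.13 and 0 calls by limma (1 higher and 2 lower at an unadjusted p under 0.05). The 3 negative ones were the keratins Krt5 (−0.05) and Krt14 (−0.14) and the cadherin Cdh3 (−0.27). Krt14 and Cdh3 were the 2 lower at an unadjusted p under 0.05. The third basal keratin, Krt15, differed by 0.04.

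Enzymes that make and turn over the ceramides of the skin barrier were another family assembled after the values were seen, and are given as counts. Of 35 genes of ceramide and acylceramide metabolism tested, 11 had a probeset called lower and 0 called higher: Sptlc1, Sptlc3, Degs1, Degs2, Elovl1, Elovl7, Hacd3, Acer1, Sgpp1, Abhd5 and Sdr9c7. By 1 probeset per gene 7 were called lower, and the median difference was −0.37. Sptlc3, a subunit of the serine palmitoyltransferase that starts sphingolipid synthesis, had the smallest p of all probesets tested. Its levels were 6.95, 8.03 and 8.24 in resistant mice and 8.48, 9.23 and 10.11 in intermediate mice, with a gap of 0.237 between the classes. The difference was −1.35 ± 0.20, a 2.56-fold lower level (adjusted p = 0.00527), and it lay between −1.72 and −0.99 under 42 alternatives, with adjusted p between 0.00129 and 0.0616. It was negative within each of cohorts 2, 4, 5 and 7. Acer1, the alkaline ceramidase of upper epidermis, had levels of 6.54, 7.41 and 7.88 in resistant mice and 7.82, 8.59 and 9.74 in intermediate mice (difference −1.34 ± 0.26, adjusted p = 0.0183), with 4 of 6 resistant mice below every intermediate mouse. Degs2, which makes phytoceramide, differed by −1.36 ± 0.34 (adjusted p = 0.0359).

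Of 17 enzymes of cholesterol synthesis, again grouped afterwards, Mvk, Pmvk, Fdps, Ebp and Msmo1 were called lower, and 16 had a negative difference. Mvk, the mevalonate kinase, differed by −0.49 ± 0.10 (adjusted p = 0.019), and Fdps, the farnesyl diphosphate synthase, by −0.65 ± 0.16 (adjusted p = 0.0369). In the wider list of sterol, fatty acid and sebaceous lipid synthesis 24 of 25 differences were negative with a median of −0.24, and 1 gene, Fdps, was called, with Scd2 and Elovl1 called lower by another probeset.

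The RefSeq promoters (GRCm38.p6, 300 bases around the transcription start) of Sptlc3, Blmh and Krt10 are printed because these genes are among the lower ones of smallest p. They come from the C57BL/6J genome and not from the mice studied. Capitals mark motifs found on either strand: AP-1 (TGANTCA), the Grainyhead-like core (AACNNGTT), the CCAAT box (CCAAT) and the TATA box (TATAAA).
Sptlc3, chr2:139493663-139493962, plus strand: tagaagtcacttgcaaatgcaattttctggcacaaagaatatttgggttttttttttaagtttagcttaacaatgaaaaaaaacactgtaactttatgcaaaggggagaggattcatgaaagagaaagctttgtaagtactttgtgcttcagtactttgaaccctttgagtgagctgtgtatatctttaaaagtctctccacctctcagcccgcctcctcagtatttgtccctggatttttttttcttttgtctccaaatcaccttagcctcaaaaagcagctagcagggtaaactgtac
Blmh, chr11:76945406-76945705, plus strand: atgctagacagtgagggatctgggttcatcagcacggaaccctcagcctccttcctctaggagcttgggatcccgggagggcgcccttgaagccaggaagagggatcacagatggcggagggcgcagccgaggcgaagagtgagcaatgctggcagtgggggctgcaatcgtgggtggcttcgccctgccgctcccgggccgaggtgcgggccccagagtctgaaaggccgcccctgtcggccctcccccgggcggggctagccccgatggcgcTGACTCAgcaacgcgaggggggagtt
Krt10, chr11:99389315-99389614, minus strand: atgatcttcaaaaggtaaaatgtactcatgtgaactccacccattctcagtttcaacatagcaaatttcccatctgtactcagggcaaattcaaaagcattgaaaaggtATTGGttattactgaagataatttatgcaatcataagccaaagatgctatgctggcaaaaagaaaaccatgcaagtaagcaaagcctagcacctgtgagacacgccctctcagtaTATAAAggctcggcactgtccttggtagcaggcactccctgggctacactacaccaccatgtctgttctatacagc
The Krt10 window holds a TATA box and an inverted CCAAT box, that of Blmh an AP-1 motif downstream of the start, and that of Sptlc3 none of the 4. AP-1 motifs stood in 8.96% of the 212 promoters of genes called lower, 5.88% of the 102 of genes called higher and 5.53% of the 10120 of all genes tested. The shares in the same order were 3.77%, 0.98% and 3.43% for the Grainyhead-like core, 42.5%, 32.4% and 38.0% for CCAAT, and 7.55%, 8.82% and 8.09% for TATAAA. These matches describe the sequence and were not tested.

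Rnase2b, a ribonuclease of the eosinophil-associated family whose close copies may share its probes, showed the largest drop. Its levels were 5.28, 8.28 and 9.95 in resistant mice and 9.18, 10.47 and 11.70 in intermediate mice (difference −2.38 ± 0.48, adjusted p = 0.0187), and 3 of 6 resistant mice lay below every intermediate mouse. Akr1d1, a steroid reductase, differed by −1.84 ± 0.49 (adjusted p = 0.0471), the acid phosphatase Acpp by −1.56 ± 0.42 (adjusted p = 0.0497), the thioesterase Them5 by −1.40 ± 0.29 (adjusted p = 0.0213) and the ion pump gene Atp13a5 by −1.42 ± 0.34 (adjusted p = 0.0331). Pla2g2f, an epidermal phospholipase, differed by −1.43 ± 0.38 (adjusted p = 0.0468).

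Rora, a nuclear receptor, had levels of 6.83, 7.94 and 8.42 in resistant mice and 8.01, 9.19 and 10.49 in intermediate mice (difference −1.39 ± 0.27, adjusted p = 0.0183). Of its 9 probesets tested, 8 had this sign and 2 were called. Of 15 nuclear receptors tested it was the 1 called lower, and Nr2f2, a receptor of venous endothelium and mesenchyme, was the 1 called higher (0.42 ± 0.11, adjusted p = 0.0428). Fgfr3, Il22ra1 and Il20rb were chosen after their values were seen. Fgfr3, an FGF receptor of keratinocytes, had levels of 5.55, 6.00 and 6.28 in resistant mice and 6.16, 6.91 and 7.41 in intermediate mice (difference −0.88 ± 0.17, adjusted p = 0.0183), with 3 of 6 resistant mice below every intermediate mouse. Of 5 FGF receptors tested, grouped afterwards, 2 had a probeset called lower, Fgfr2 and Fgfr3, 3 were negative by 1 probeset per gene, and the median difference was 0.00. Il22ra1, a subunit of the IL22 receptor, differed by −0.94 ± 0.19 (adjusted p = 0.0187) and Il20rb, shared by receptors of the IL20 family, by −0.71 ± 0.16 (adjusted p = 0.0271).

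Of 18 Serpinb, kallikrein and Spink genes tested 15 were negative, with a median of −0.44 (−0.36 without mouse 32, −0.33 without the mice of doubtful label, −0.23 without both). The 1 gene called was Serpinb9, the mouse inhibitor of granzyme B, which was higher, with levels of 7.78, 8.24 and 9.75 in resistant mice and 6.09, 7.33 and 8.49 in intermediate mice (difference 1.11 ± 0.28, adjusted p = 0.0411). Leaving out the mice of doubtful label gave 0.66 for Serpinb9. Klk5, a kallikrein of desquamation, differed by −1.34 ± 0.36 (adjusted p = 0.0501). In the list of small proline-rich proteins 7 of 8 genes were negative, with a median of −0.45 (−0.29 without mouse 32, −0.28 without the mice of doubtful label, −0.07 without both), and Sprr1b, a precursor of the cornified envelope, was called lower (−0.47 ± 0.11, adjusted p = 0.0332). In the list of hyperplastic epidermis 15 of 16 were negative, with a median of −0.37 (−0.20 without mouse 32, −0.37 without the mice of doubtful label, −0.08 without both), and Krt16, a keratin of wounded epidermis, was called lower (−0.51 ± 0.13, adjusted p = 0.0397).

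Gzme and Krt19 were called higher, with intermediate levels mostly at or below the array medians, so that the size and rank of their differences are not fixed. The same limit holds for other called genes. Among them are Ccr1, Ifit3 and Tfpi2, with intermediate means of 5.066, 5.133 and 5.275, and Atp13a5, with a resistant mean of 4.134. Gzme, a granzyme with close neighbors in its cluster that its probeset may share, had levels of 5.14, 6.91 and 9.00 in resistant mice and 3.44, 5.12 and 6.95 in intermediate mice. The difference was 2.25 ± 0.54, with adjusted p = 0.0315 (exact permutation p = 0.000785, two-sided), and 3 of 6 resistant mice lay above every intermediate mouse. Within cohorts 2, 4, 5 and 7 it was 1.61, 3.96, 2.83 and 4.19, and over 41 alternatives it spanned 1.60 to 2.82. Of 8 genes of granzymes and cytotoxic cells tested it was the 1 called, Gzmb differed by −0.27 ± 0.28 (adjusted p = 0.627), and the median was −0.03. The T cell list, 12 genes, had 0 calls by limma (0 higher and 0 lower at an unadjusted p under 0.05) and a median of −0.04.

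Krt19, a keratin of simple epithelia, had levels of 5.12, 7.62 and 9.39 in resistant mice and 4.00, 5.18 and 7.31 in intermediate mice (difference 2.13 ± 0.51, adjusted p = 0.0326), and its difference was 1.88 without mouse 32, 1.49 without the mice of doubtful label and 1.09 without both, with 3 of 6 resistant mice above every intermediate mouse. It was the 1 gene called among 9 simple and mucosal keratins, of which 6 had a positive difference and 3 a negative one. Their median was 0.68 (0.49 without mouse 32, 0.50 without the mice of doubtful label, 0.27 without both). Krt8 differed by 1.87 ± 0.61 (adjusted p = 0.0892), Krt7 by 2.12 ± 0.86 (adjusted p = 0.166) and Krt18 by 1.29 ± 0.50 (adjusted p = 0.151). The first and second papilloma of mouse 32 had Krt8 at 11.1 and 4.95, and Krt18 at 12.1 and 6.31. With the second papilloma of mouse 32 alone Krt19 differed by 1.45, and within cohorts 2, 4, 5 and 7 by 2.33, 4.78, 2.37 and −0.03.

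Of 19 endothelial genes tested 5 were called higher, Egfl7, Robo4, Kdr, Flt4 and Cdh5, and 0 lower. All 19 differences were positive, with a median of 0.56. The mean level of the list was 6.92, 7.41 and 8.25 in resistant mice and 6.55, 6.99 and 7.39 in intermediate mice (lowest, median, highest), and the median difference was 0.53 without mouse 32, 0.37 without the mice of doubtful label and 0.34 without both. Kdr, the main receptor for VEGF on blood vessels, had levels of 6.97, 7.55 and 7.96 in resistant mice and 5.96, 6.91 and 7.42 in intermediate mice (difference 0.69 ± 0.16, adjusted p = 0.0279). Flt4, the receptor of lymphatic endothelium, had levels of 6.64, 7.02 and 9.14 in resistant mice and 5.86, 6.49 and 7.09 in intermediate mice (difference 0.94 ± 0.23, adjusted p = 0.0338), and the highest value belongs to mouse 35. Without the mice of doubtful label Flt4 differed by 0.58 (adjusted p = 0.125). Counted over all probesets after the values were seen, 4 of 5 VEGF receptors and neuropilins were called higher, Flt1, Kdr, Flt4 and Nrp2. By 1 probeset per gene 2 of these 5 were called higher. Kdr and Flt4 are also counted in the endothelial list. Notch4, the Notch receptor of endothelium, had levels of 5.00, 6.21 and 6.71 in resistant mice and 4.94, 5.29 and 5.75 in intermediate mice (difference 0.79 ± 0.16, adjusted p = 0.0184), and it was the 1 call among 16 Notch pathway genes. Sh2d3c, an adaptor protein chosen after its values were seen, had the smallest p on the higher side (0.50 ± 0.08, adjusted p = 0.00647).

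Igfbp3, a secreted binder of insulin-like growth factors, had levels of 10.92, 11.53 and 11.93 in resistant mice and 9.54, 10.41 and 11.38 in intermediate mice (difference 1.07 ± 0.23, adjusted p = 0.0226), with 4 of 6 resistant mice above every intermediate mouse. The protease inhibitor Tfpi2 differed by 1.13 ± 0.30 (adjusted p = 0.0479), the scaffold Akap12 by 0.99 ± 0.24 (adjusted p = 0.0343), the glycosyltransferase Mgat4a by 1.02 ± 0.25 (adjusted p = 0.0361), Ttc36 by 1.10 ± 0.29 (adjusted p = 0.0471) and the stress-induced factor Atf3, chosen after its values were seen, by 0.80 ± 0.21 (adjusted p = 0.0481). The other genes whose classes did not overlap had smaller differences. Sdcbp, the adaptor syntenin, was higher by 0.68 ± 0.13 (adjusted p = 0.0183) and Prr5l, a partner of the kinase complex mTORC2, by 0.51 ± 0.09 (adjusted p = 0.0183). The Prr5l levels were 5.35, 5.61 and 5.68 in resistant mice and 4.44, 5.05 and 5.34 in intermediate mice, close to the array medians. The ubiquitin-conjugating enzyme Ube2d3 differed by −0.25 ± 0.05 (adjusted p = 0.0209), the transcript 5031425E22Rik by −0.42 ± 0.09 (adjusted p = 0.0209) and the dehydrogenase Dhrs7 by −0.52 ± 0.14 (adjusted p = 0.0492). The gap between the classes was 0.0704 for Sdcbp and 0.0676 for Calm4, and under 0.05 for the remaining 4. For Ube2d3 4 of 7 probesets had this sign.

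In the list of neutrophils and CXC chemokines 14 of 15 genes had a positive difference, with a median of 0.86 (1.07 without mouse 32, 0.53 without the mice of doubtful label, 0.77 without both), and 1 was called, Csf3r, the receptor for the growth factor of neutrophils; Clec4e was called higher by a second probeset. Csf3r had levels of 8.23, 9.16 and 9.60 in resistant mice and 6.92, 7.88 and 9.20 in intermediate mice (difference 1.11 ± 0.28, adjusted p = 0.0377). Ccr1, a chemokine receptor of myeloid cells, differed by 1.17 ± 0.29 (adjusted p = 0.0377), Slfn4, a myeloid Schlafen gene, by 1.41 ± 0.34 (adjusted p = 0.0328), Themis2, a signalling protein of myeloid and B cells, by 1.07 ± 0.25 (adjusted p = 0.0278) and the chemokine receptor Cxcr4, chosen after its values were seen, by 0.93 ± 0.22 (adjusted p = 0.0321). The iron-binding granule protein Ltf differed by 1.60 ± 0.98 (adjusted p = 0.372). The macrophage list had 19 of 20 positive differences, 0 calls by limma (1 higher and 0 lower at an unadjusted p under 0.05) and a median of 0.35 (0.46 without mouse 32, −0.07 without the mice of doubtful label, 0.08 without both).

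Nlrp3, the sensor of an inflammasome, had levels of 6.65, 7.15 and 7.43 in resistant mice and 6.29, 6.46 and 6.91 in intermediate mice (difference 0.55 ± 0.10, adjusted p = 0.0143). It was the 1 call among 22 genes of the list of IL1 family and Tslp, whose median was 0.07. Cytokines of the list were not called: Il1b differed by 1.05 ± 0.31 (adjusted p = 0.0666), Il1f9 by −1.01 ± 0.30 (adjusted p = 0.0631), Il1f5 by −1.35 ± 0.44 (adjusted p = 0.0858) and Il18 by −0.71 ± 0.26 (adjusted p = 0.133). Interferon-induced genes had 19 of 23 positive differences, a median of 0.33 (0.49 without mouse 32, 0.19 without the mice of doubtful label, 0.25 without both) and 1 call, Ifit3 (0.90 ± 0.22, adjusted p = 0.0376). All 5 genes of the Ifi200 family, DNA sensors that lie close together on chromosome 1 and share sequence, were positive with a median of 0.95 (0.99 without mouse 32, 0.58 without the mice of doubtful label, 0.80 without both) and 0 calls (4 higher and 0 lower at an unadjusted p under 0.05). Mndal of this family had levels of 9.21, 9.74 and 10.53 in resistant mice and 4.37, 8.29 and 9.68 in intermediate mice (difference 2.02 ± 0.63, adjusted p = 0.0778).

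The further cell type lists had 0 calls by limma, melanocytes excepted. Fibroblast and matrix genes had 22 of 22 positive differences and a median of 0.40 (0.55 without mouse 32, 0.12 without the mice of doubtful label, 0.35 without both), with 5 higher and 0 lower at an unadjusted p under 0.05. B and plasma cell genes had 4 of 5 positive and a median of 0.66 (0.72 without mouse 32, 0.22 without the mice of doubtful label, 0.18 without both). Langerhans and dendritic cell genes had 9 of 14 positive and a median of 0.03 (0.15 without mouse 32, 0.04 without the mice of doubtful label, 0.04 without both). Mast cell genes had 3 of 12 positive and a median of −0.18 (−0.01 without mouse 32, −0.48 without the mice of doubtful label, −0.27 without both). Adipocyte genes had 7 of 10 positive and a median of 0.29 (0.11 without mouse 32, −0.07 without the mice of doubtful label, −0.18 without both). Striated muscle genes had 20 of 20 positive and a median of 0.27 (0.47 without mouse 32, −0.44 without the mice of doubtful label, −0.24 without both). The mean level of the striated muscle list was 4.87, 5.59 and 8.84 in resistant mice and 4.76, 5.50 and 8.00 in intermediate mice, and the highest belongs to mouse 35. In the list of melanocytes and pigment, with a median of −0.48 (−0.27 without mouse 32, −0.51 without the mice of doubtful label, −0.26 without both), Rab38, a small GTPase of melanosome transport, was called lower (−0.51 ± 0.12, adjusted p = 0.0271), and the pigment enzyme Dct differed by −1.07 ± 0.56 (adjusted p = 0.288). The part of these cells in the differences of barrier and vessel genes was not tested.

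The median difference of 12 hair shaft keratins was −0.06 (0.06 without mouse 32, −0.28 without the mice of doubtful label, −0.18 without both). That of 10 inner root sheath genes was 0.04 (0.33 without mouse 32, −0.35 without the mice of doubtful label, −0.12 without both), so its sign turned with the mice left out. For 26 keratin-associated proteins it was −0.06 (0.21 without mouse 32, −0.47 without the mice of doubtful label, −0.20 without both), and for 17 follicle regulators −0.09 (−0.09 without mouse 32, −0.15 without the mice of doubtful label, −0.07 without both). These lists had 0 calls by limma, and 1, 0, 0 and 3 genes at an unadjusted p under 0.05. Krt25, a keratin of the inner root sheath, had levels of 4.85, 8.12 and 10.85 in resistant mice and 4.67, 7.35 and 12.41 in intermediate mice (difference 0.01 ± 1.18, adjusted p = 0.998). Krt71, of the same sheath, differed by −0.10 ± 0.78 (adjusted p = 0.958), the receptor Gprc5d by −0.21 ± 0.36 (adjusted p = 0.794) and the stem cell marker Lgr5 by −0.03 ± 0.32 (adjusted p = 0.974).

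Lists of proliferation and signalling held few calls. Mitotic genes had 23 of 26 negative differences and a median of −0.16 (−0.26 without mouse 32, −0.17 without the mice of doubtful label, −0.31 without both), with 0 higher and 4 lower at an unadjusted p under 0.05, and DNA replication genes a median of 0.00, with 0 calls by limma in both. The list of TGF-beta and mesenchymal switch genes had 20 of 23 positive differences and a median of 0.35. By 1 probeset per gene it had 0 calls by limma (11 higher and 0 lower at an unadjusted p under 0.05), and by any probeset 2 genes were called higher, the ligand Tgfb2 (0.57 ± 0.15, adjusted p = 0.0451) and the inhibitory Smad7 (0.37 ± 0.09, adjusted p = 0.0424). Urokinase and matrix metalloproteinases had 17 of 18 positive differences, a median of 0.39 (0.61 without mouse 32, 0.14 without the mice of doubtful label, 0.31 without both) and 0 calls (2 higher and 0 lower at an unadjusted p under 0.05). The list of Ras and ERK feedback had 17 of 20 positive and a median of 0.11, with 0 calls by 1 probeset per gene (4 higher and 1 lower at an unadjusted p under 0.05) and Map2k4 lower by another probeset. Medians were −0.10 for the EGF receptor family and its ligands, 0.02 for heat shock, −0.09 for the xenobiotic and NRF2 response, 0.08 for p53 targets and cell-cycle inhibitors, −0.22 (−0.09 without mouse 32, −0.19 without the mice of doubtful label, −0.13 without both) for cyclooxygenases and lipoxygenases, −0.07 for the circadian clock and 0.20 (0.24 without mouse 32, 0.31 without the mice of doubtful label, 0.31 without both) for imprinted genes, with 0 calls in each by 1 probeset per gene and Pla2g2f of the lipoxygenase list lower by another. Of 41 genes of oxidative phosphorylation Ndufv1 was called lower (−0.30 ± 0.07, adjusted p = 0.0279) and Cox6c higher by a second probeset (0.37 ± 0.09, adjusted p = 0.0331), and of 25 of the proteasome and antigen processing list Psmb2 (−0.34 ± 0.08, adjusted p = 0.0278), with list medians of −0.06 and −0.02. Counted afterwards over all probesets, 5 of 31 subunits of the 26S proteasome were called lower (4 by 1 probeset per gene) and 0 higher, and of 19 cytosolic aminoacyl-tRNA synthetases, enzymes that charge transfer RNA, 5 were lower (Nars, Qars, Rars, Farsb and Lars, 2 of them by 1 probeset per gene) and 0 higher.

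**Figure D4:**
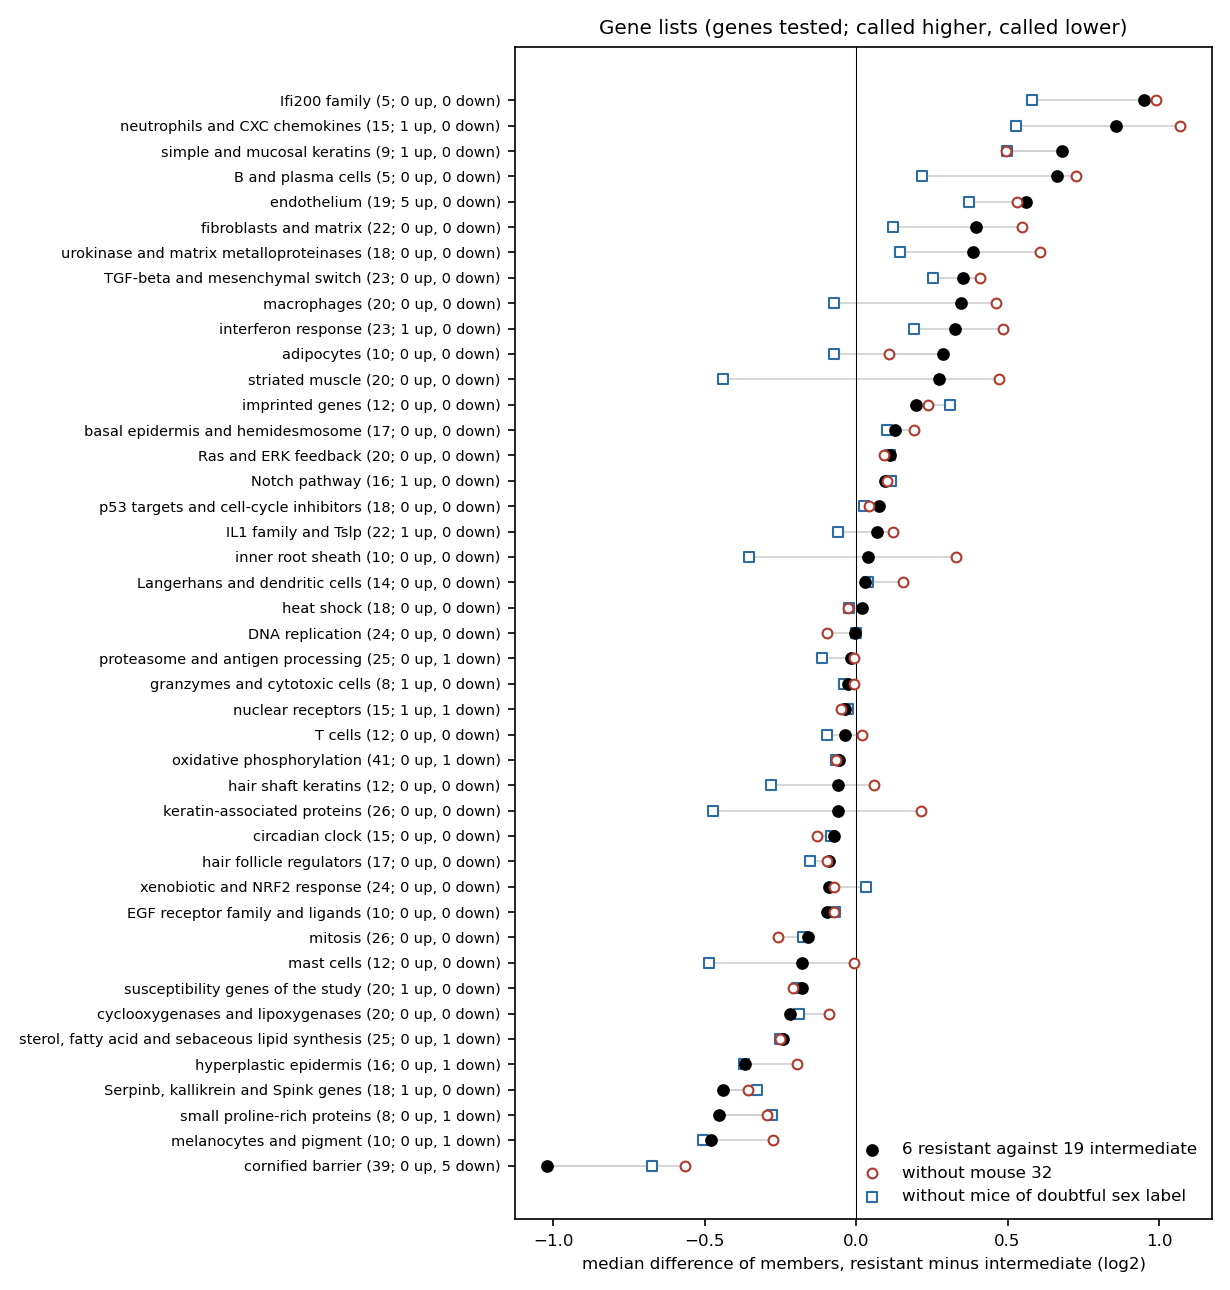
Each row is a gene list with the number of genes tested and called; the horizontal axis is the median difference of its members (resistant minus intermediate, log2) for all 25 mice (filled circle), without mouse 32 (open circle) and with the mice of doubtful label left out (open square). The cornified barrier median is −1.02 for all mice and −0.56 without mouse 32, and that of striated muscle is 0.27 for all mice and −0.44 without those of doubtful label.

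Of the genes that the study singled out for tumor susceptibility, 20 were tested and 1, Gzme, was called, and 15 were negative, with a median of −0.18. That list was chosen by the study on these same arrays and is not independent evidence. Il18, a cytokine of keratinocytes, had levels of 9.49, 10.39 and 10.93 in resistant mice and 9.31, 11.22 and 11.75 in intermediate mice, with no resistant mouse outside the intermediate range. Spry2, an inhibitor of receptor tyrosine kinase signalling, differed by 0.19 ± 0.14 (adjusted p = 0.479), and Tslp, an epithelial cytokine, by −1.45 ± 0.71 (adjusted p = 0.258). Akr1b10, an aldo-keto reductase, differed by 1.16 ± 0.44 (adjusted p = 0.139). The probesets of Map2k4, a kinase that activates JNK and p38, did not give the same call: the brighter differed by −0.20 ± 0.09 (adjusted p = 0.253) and the other, named after its values were seen, by −0.54 ± 0.12 (adjusted p = 0.0278).

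Susceptible mice, set beside the same 19 intermediate mice, gave 1 call higher and 0 lower by limma, with 3599 probesets at an unadjusted p under 0.05. Since both comparisons share the intermediate mice they are given side by side only. Krt10 averaged 12.23 ± 1.00 in resistant mice, 13.85 ± 0.44 in intermediate mice and 13.72 ± 0.50 in susceptible mice (SD, n = 6, 19 and 12). Sptlc3 averaged 7.86 ± 0.46 in resistant mice, 9.21 ± 0.43 in intermediate mice and 9.12 ± 0.56 in susceptible mice. Gzme averaged 7.19 ± 1.52 in resistant mice, 4.94 ± 1.11 in intermediate mice and 4.15 ± 0.66 in susceptible mice, and its mean was highest in the class with the fewest papillomas. Igfbp3 averaged 11.53 ± 0.38 in resistant mice, 10.46 ± 0.54 in intermediate mice and 10.72 ± 0.64 in susceptible mice. The median difference of the cornified barrier was −1.02 for resistant minus intermediate and 0.12 for susceptible minus intermediate, and that of the endothelial list 0.56 and 0.29. In the same order the medians were 0.33 and 0.32 for interferon-induced genes, 0.35 and 0.47 for macrophages, 0.66 and 1.28 for B and plasma cells, 0.40 and 0.25 for fibroblasts and matrix, and 0.86 and 0.29 for neutrophils and CXC chemokines.

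The distance between the papillomas of a mouse was larger in resistant mice with mouse 32 included and was not past the threshold without it. Over all probesets tested, the Euclidean distance between the 2 papillomas of a mouse was 58.9, 75.0 and 136 (lowest, median, highest) in 5 resistant mice and 36.0, 53.8 and 115 in 16 intermediate mice. The means were 85.6 ± 30.6 in resistant mice and 58.2 ± 20.2 in intermediate mice (SD), a difference of 27.5 (exact permutation p = 0.0283, two-sided, 20349 splits). The highest distance belongs to mouse 32, and without it the difference was 14.8 (exact permutation p = 0.184). The gap in the 3′ to 5′ Actb signal between the papillomas of a mouse, a measure of unequal RNA quality, was 0.822 for mouse 32, 1.97 for resistant mouse 37 and 1.4 for intermediate mouse 2 on the log2 scale, and its part in the distances was not tested.

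**Figure D5:**
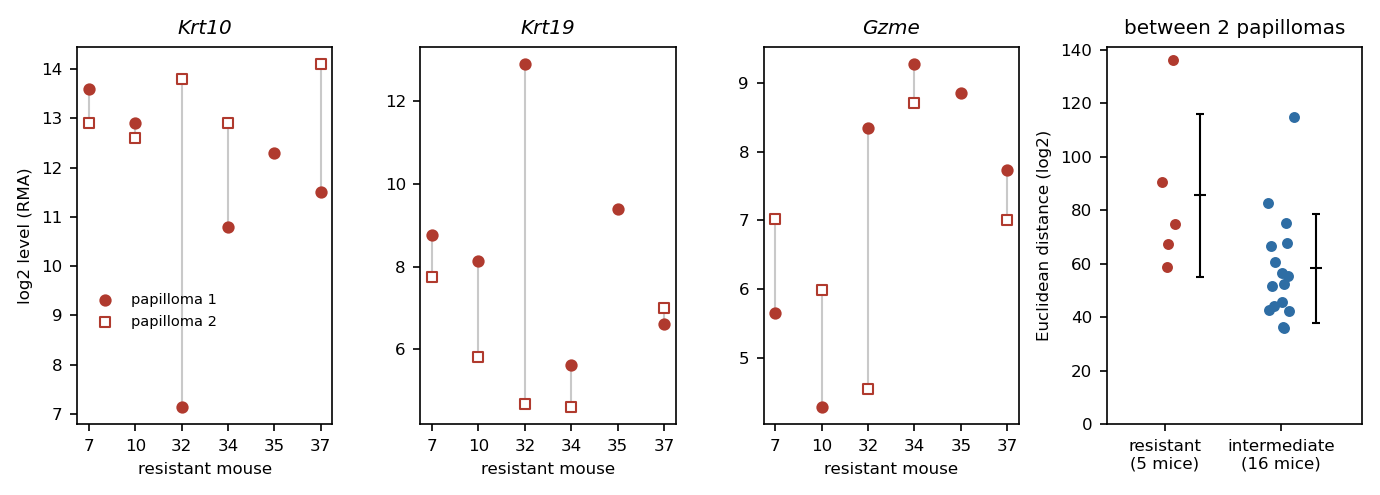
The first 3 panels give the log2 level of Krt10, Krt19 and Gzme in each papilloma of the resistant mice, with a marker for papilloma 1 and another for papilloma 2 (mouse 35 has 1), and the last panel the distance between the papillomas of a mouse with mean and SD. The papillomas of mouse 32 lie farthest apart, at 7.14 and 13.8 for Krt10.

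No probeset was called for a class difference that depended on labelled sex (limma interaction, 0 calls, 1121 probesets at an unadjusted p under 0.05). Calls came from every autosome and from the X chromosome, and the share of tested probesets called ran from 0.804% on chromosome 15 to 3.56% on chromosome 9. Chromosome 7, where the coat color gene Tyr lies, had 1.07% called. The ratio of 3′ to 5′ Actb signal spanned 0.175 to 0.913 in resistant mice and 0.546 to 1.43 in intermediate mice on the log2 scale, and with RNA quality as a covariate there were 222 higher and 561 lower.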

How the data were processed

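Papillomas were profiled on Affymetrix arrays, 68 arrays of 37 mice. The deposited values are log2 levels that the authors computed by RMA, whose version is not given in the sources used here. The 2 protocol fields of the labels give the DMBA dose per mouse in different units, and 25 µg was used. Values were averaged per mouse and classes taken from the label for papillomas at 20 weeks. Of 45101 probesets, 64 were controls, 932 had several gene symbols and 9160 none. Those with 1 symbol and above their array's median in at least 11 arrays were tested with limma 3.58.1 (lmFit, eBayes) in R 4.3.3 with Benjamini-Hochberg adjustment, two-sided, threshold 0.05. The method was tested on simulated data, drawn independently for each probeset and mouse from normal distributions. That simulation held no unlike mouse and no cohorts or coats, so it does not address how the calls depend on single mice. Exact permutation tests, lists, motifs and figures used Python 3.11.15, numpy 2.4.6, pandas 2.3.3 and matplotlib 3.10.9. The study's methods name SAM, which permutes samples and was not run here.

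Genes were named by rule: the 12 largest differences in each direction among the calls, genes whose classes did not overlap, 9 genes named by the study, and up to 4 members of each of 43 gene lists. Other genes are said to be chosen after their values were seen, or are listed as members called. The classes and lists were chosen with earlier results of these data known. Alternatives changed the filter, the normalization (quantile, median centring), the mice and papillomas in the fit and the covariates. The number of mice limits precision, and mice are the replicates.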

Additional observations from a re-analysis of the deposited data

Results flagged for a closer look

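In 8 of the 78 probesets of genes named above, 1 resistant mouse stood farther from the other 5 than Dixon's critical value allows. Chance alone marks about 1 in 20 groups. Mouse 32 was low in 7 of them. Its level was 6.95 for Sptlc3, against 7.85 to 8.24 in the other 5 resistant mice, 12.25 for Calm4, against 13.51 to 13.79 in the other 5, and 7.26 for Casp14, against 9.67 to 10.22 in the other 5. It was also 6.87 for Themis2, against 7.90 to 8.32 in the other 5, 5.97 for Clec4e, against 8.03 to 9.17 in the other 5, 9.69 for Il1b, against 11.25 to 11.69 in the other 5, and 6.73 for Sh2d3c, against 6.99 to 7.10 in the other 5. Themis2 and Sh2d3c were called higher in resistant mice, and there the level of this mouse lay on the side of the intermediate mice. Mouse 35 was high in 1, with a Flt4 level of 9.14, against 6.64 to 7.42 in the other 5. The part of the unlike first papilloma of mouse 32 and of the doubtful sex label of mouse 35 in these values was not tested.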

How the results depend on the processing

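The 452 called probesets kept their sign under each alternative that tested them, which their selection for a large difference favors, and the number past the threshold moved. Against 144 higher and 308 lower, the counts were 87 higher and 181 lower without the filter on low values, 49 higher and 119 lower with all 37 mice in the fit, 80 higher and 186 lower over arrays with mouse as a random effect, 308 higher and 611 lower with the first papilloma of each mouse, 78 higher and 188 lower with sex as a covariate, 2 higher and 8 lower with coat, 273 higher and 672 lower with start cohort as a block, 222 higher and 561 lower with RNA quality, 20 higher and 62 lower in agouti mice only, 199 higher and 687 lower against intermediate mice with 2 to 5 papillomas, and 1 higher and 4 lower without the mice of doubtful label. The setting with the first papilloma takes mouse 32 by its unlike first tumor, and the cohort block takes mouse 10 out of the class difference. In alternatives chosen after seeing the data the counts were 20 higher and 68 lower with mouse 32 by its second papilloma. Without mouse 32 and the mice of doubtful sex label, chosen likewise, they were 0 higher and 0 lower. With 1 mouse left out they spanned 7 to 511 higher and 9 to 834 lower, the lowest without mouse 32 and the highest without mouse 10. The causes were not tested. The class difference of the distance between the 2 papillomas of a mouse spanned 14.8 to 34.1 with 1 mouse left out, the lowest without mouse 32.

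Of 3350 values of 78 named probesets under the alternatives, 2627 kept direction and side of the threshold, 623 kept direction but lost the call, 61 gained one and 39 changed sign, the last in Lgr5, Krt71 and Krt25, none of which was called. Of the 61 gains, 14 came from the exact permutation test. Its p was unadjusted, unlike the adjusted p of the main calls. Lgr5 turned to 0.0343 with sex as a covariate, 0.483 with start cohort as a block, 0.0247 in agouti mice only and 0.00366 without mouse 32 and the mice of doubtful sex label, and spanned −0.12 to 0.12 with 1 mouse left out. Krt71 turned to 0.0431 with sex as a covariate and 0.324 with start cohort as a block, and spanned −0.564 to 0.207 with 1 mouse left out. Krt25 turned to −0.0733 over arrays with mouse as a random effect, −0.476 with the first papilloma of each mouse, −0.653 with coat as a covariate, −0.0234 with RNA quality as a covariate, −0.236 in agouti mice only, −0.278 against intermediate mice with 2 to 5 papillomas, −0.543 without the mice of doubtful sex label and −0.000485 after centring arrays on their median, and spanned −0.605 to 0.594 with 1 mouse left out.

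No paired analysis was possible because the replicate numbers in the labels name the tumors of a mouse and pair no mice across classes. Cohort was used as a block above, and cages that held both classes, 2 of them, were not. Limits are the 6 resistant mice, of which 1 has a single papilloma, the unequal coats, cohorts and origins of the classes, and the doubtful sex labels. Probesets near the array median measure little above background, and probesets of gene families can share transcripts.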
